A study of Mus musculus with 2 samples.

Results

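Histone modifying enzymes were examined in mouse embryonic stem (ES) cells in which c-Jun can be induced, as 89 genes chosen by symbol from the 14261 rows of the expression table. The choice took lysine methyltransferases, demethylases, arginine methyltransferases, acetyltransferases, histone deacetylases and sirtuins by a rule on gene symbols that uses no values. Earlier results of these data were known, however, when the members were chosen and their roles assigned. One culture was TRE-ESC with doxycycline (dox), which induces transgenes under a TRE (tetracycline response element) promoter, and its control was TRE-ESC without dox. Both grew in suspension in low adsorption dishes in N2B27 with 2i and LIF, a medium that holds mouse ES cells in the naive state, and both were labelled 36 h. There was 1 RNA-seq library per group, so no difference has a replicate check and no test was made between the cultures. The labels do not say which gene the TRE promoter drives, or whether the line is 1 clone.

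Values are whole numbers on a normalized scale on which both libraries had the same median, 62, and the same highest value, 14907. Depth is therefore not known. Whether values are scaled by transcript length is not given, so a larger value of one gene than of another is not read as more transcripts. A ratio is the value with dox plus 10 over the value without dox plus 10. It was read for genes with a value of at least 50 in one library or the other, 8547 of them. Jun, the gene of c-Jun, stood at 3821 with dox and at 55 without dox. All 7 ES cell markers were listed, and they summed to 9566 with dox and 13970 without dox. Pou5f1 stood at 3572 with dox and 3230 without and Dppa5a at 3818 with dox and 4342 without. The naive marker Nanog stood at 623 with dox and 2508 without, and Esrrb at 500 with dox and 1531 without. Utf1 stood at 73 with dox and 270 without, Zfp42 at 459 with dox and 1047 without, and Sox2 at 521 with dox and 1042 without. Of 6 fibroblast markers 2 were at 0 in both libraries, and the list summed to 62 with dox and 12 without. For blood and endothelium 2 of 4 markers were listed, Ptprc at 19 with dox and 0 without and Pecam1 at 152 with dox and 205 without. The part of these marker differences in the values below was not tested. In bulk RNA, fewer cells of a type and less RNA per cell cannot be told apart.

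Histone tails carry methyl and acetyl groups that mark active and silent chromatin. Writers add them, by transferring methyl groups from S-adenosylmethionine or acetyl groups from acetyl-CoA, and erasers remove them: the LSD and JmjC demethylases by oxidation, and the histone deacetylases (HDACs) and sirtuins by hydrolysis or with NAD. In naive ES cells these enzymes are known for keeping developmental genes poised, for silencing repeats through H3K9 methylation and for acetylating the enhancers bound by pluripotency factors. The 89 genes comprised 42 writers, 37 erasers and 10 relatives whose activity is uncertain or is directed at other proteins. Of the writers 34 and of the erasers 31 were classed as acting on histones. The remaining writers and erasers, Setd6 and Hdac6 among them, have other or uncertain main substrates.

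Most of the enzymes had similar values in both libraries. Of the 73 that reached the floor, 2 were at least 2-fold higher with dox, Suv39h1 and Setd7, and 2 were at least 2-fold lower, Setd6 and Sirt1. Among all genes at or above the floor 9.23% were at least 2-fold higher and 5.49% at least 2-fold lower, 14.7% in all, against 5.48% of the enzymes. At a 1.5-fold limit, chosen after the values were seen, 8 enzymes were higher and 9 lower, which is 23.3% of them. Of all genes 16.7% were higher and 17.7% lower at that limit, 34.4% in all. With a larger value of at least 250, 1 of 40 enzymes passed 2-fold, against 14.3% of the 3118 genes in that range. The quartiles of the log2 ratio were −0.36 and 0.34 for the enzymes and −0.44 and 0.34 for all genes.

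**Figure D1:**
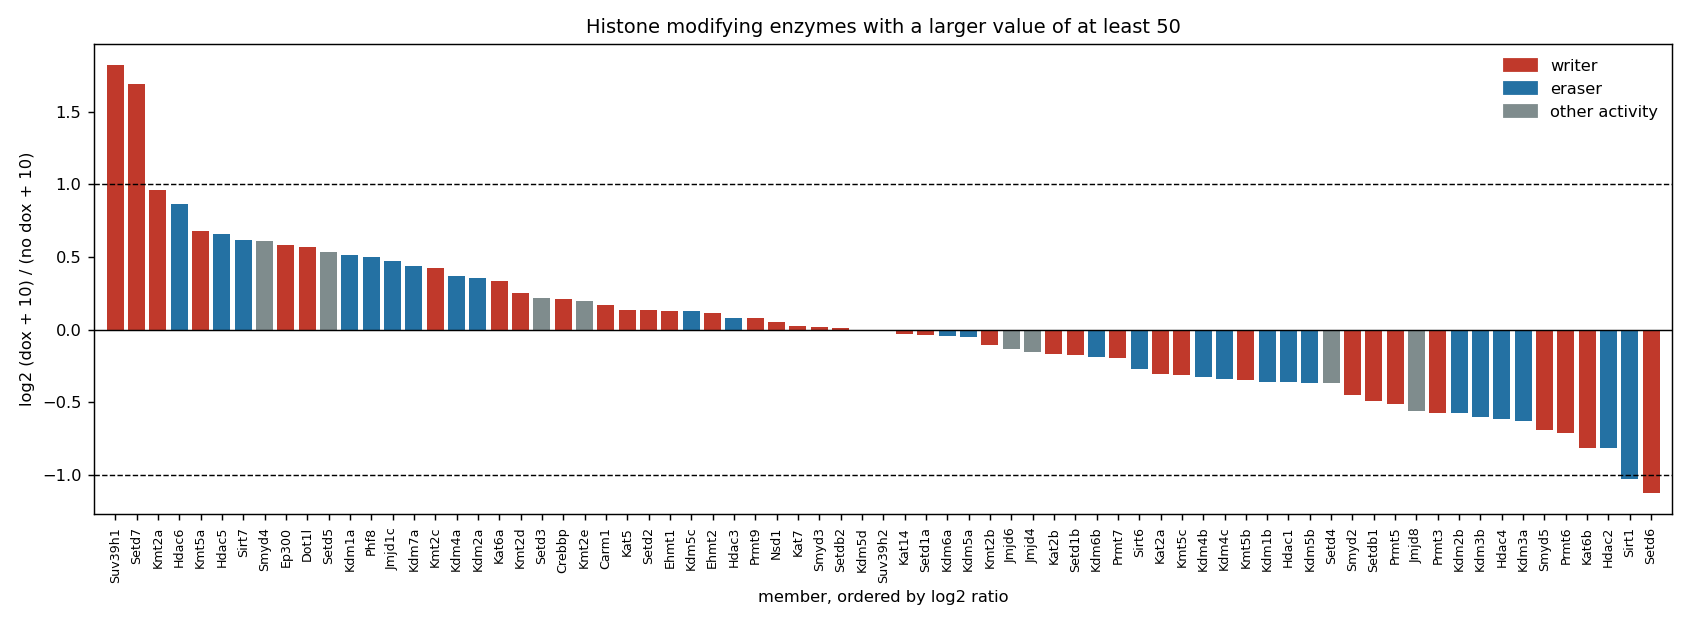
Log2 ratio of dox to no dox for the 73 histone modifying enzymes whose larger value was at least 50, ordered from highest to lowest, with 1 library per group. Red bars are writers, blue bars erasers and grey bars other activities; dashed lines mark 2-fold, which 2 genes pass on each side.

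Writers and erasers had nearly the same median log2 ratio. It was 0.02 over 38 writers and −0.05 over 27 erasers, a difference of 0.06, beside −0.08 over all genes. Of the writers 20 had a ratio above 0 and 18 below, and of the erasers 11 above, 15 below and 1 at 0. Of all 8547 genes at or above the floor 3771 were above 0 and 4690 below. Past 2-fold stood 2 writers on the higher side and 1 on the lower, and 0 erasers on the higher side and 1 on the lower. Of all genes 9.23% were past 2-fold on the higher side and 5.49% on the lower. With members of other or uncertain main substrates left out, the medians were 0.04 over 32 writers and −0.12 over 26 erasers. Enzyme transcripts were long, with a median of 4853 nt against 3565.5 nt over all genes, and across this table log2 ratios are higher for longer transcripts. With that trend removed the medians were −0.15 for writers and −0.22 for erasers, against −0.07 for all genes, so the sign of the writers' median depends on this step.

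**Figure D2:**
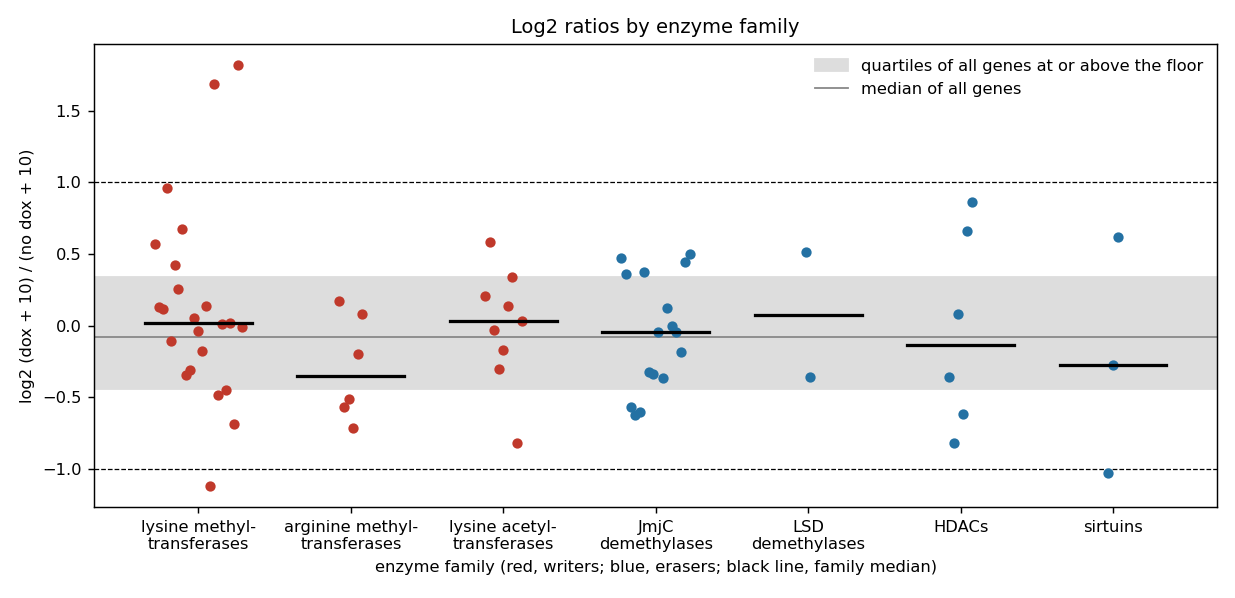
Log2 ratio of dox to no dox by enzyme family, each point 1 gene whose larger value was at least 50 (red, writers; blue, erasers), with the family median as a black line and the quartiles of all genes as a grey band. With the HDACs of classes I and II pooled, family medians lie between −0.35 for arginine methyltransferases and 0.08 for the LSD demethylases, and the points furthest from 0 are lysine methyltransferases.

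The highest ratio was that of Suv39h1, a writer of H3K9 trimethylation at pericentric heterochromatin. It stood at 184 with dox and 45 without dox, 3.53-fold higher, a log2 ratio of 1.82. The gene lies on the minus strand of chromosome X, from 8061171 to 8074760 in GRCm38, the assembly of mm10. An antisense gene, Gm14820, runs over it on the plus strand from 8042943 to 8074619, and 767 exonic bases are shared, 14.6% of those of Suv39h1 and 36.6% of those of Gm14820. Gm14820 was lower with dox, at 5 with dox and 67 without dox. No source used here says that strand was used in counting, and without strand a read in the shared bases does not itself show which gene it came from. The values of both genes together were 189 with dox and 112 without dox, 1.63-fold higher, a log2 ratio of 0.71 that is under 2-fold. The 2-fold call of Suv39h1 thus holds for the value as listed and not for the sum. The sum takes the whole value of Gm14820, though only 36.6% of its exonic bases are shared. It also adds scores of different genes, which may not share a scale, so it does not settle the call. Its relative Suv39h2, which writes the same mark, stood at 106 with dox and 107 without. Suv39h2 shares 8.1% of its exonic bases with Dclre1c on the other strand, which stood at 36 with dox and 50 without.

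**Figure D3:**
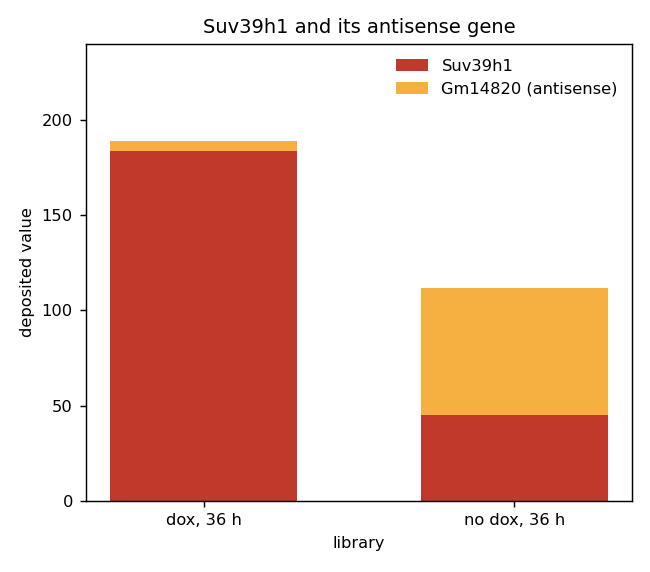
Deposited values of Suv39h1 (red) and of the antisense gene Gm14820 (yellow), stacked, in the library with dox (left) and without dox (right), 1 library each. Suv39h1 takes 184 of 189 with dox and 45 of 112 without dox.

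Setd7, which adds a single methyl group to H3K4 and to other proteins such as p53, stood at 90 with dox and 21 without dox. This is 3.23-fold higher, a log2 ratio of 1.69, and it was 0.98 with a pseudocount of 50, just under 2-fold. The gene lies on chromosome 3 from 51515319 to 51560879 on the minus strand. Setd6, a methyltransferase known for the NF-kB subunit RelA, stood at 58 with dox and 138 without dox, 2.18-fold lower. Setd6 lies on chromosome 8 from 95715881 to 95719010 on the plus strand. Sirt1, an NAD-dependent deacetylase of histones and transcription factors, stood at 155 with dox and 327 without dox, 2.04-fold lower. Sirt1 lies on chromosome 10 from 63319005 to 63381704 on the minus strand. Both are near the limit: the log2 ratio of Setd6 was −1.12 and that of Sirt1 −1.03, and with a pseudocount of 50 they were −0.80 and −0.88.

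Promoter sequences are shown for these 4 genes because they alone pass 2-fold while c-Jun, which binds DNA within AP-1, is induced. Each runs from 250 bases before to 50 after a RefSeq start site in GRCm38.p6, in the direction of the gene, and the capitals mark GC boxes (GGGCGG or its complement CCGCCC), the motif of the Sp and Krüppel-like factors. Suv39h1 has a pair of start sites, at chrX:8074711-8075010 (upstream) and chrX:8074312-8074611 (downstream). The windows of Setd7, Sirt1 and Setd6 are chr3:51560774-51561073, chr10:63338986-63339285 and chr8:95715663-95715962. The Sirt1 window lies inside the gene span given above, which comes from GENCODE and not from RefSeq.
Suv39h1 upstream: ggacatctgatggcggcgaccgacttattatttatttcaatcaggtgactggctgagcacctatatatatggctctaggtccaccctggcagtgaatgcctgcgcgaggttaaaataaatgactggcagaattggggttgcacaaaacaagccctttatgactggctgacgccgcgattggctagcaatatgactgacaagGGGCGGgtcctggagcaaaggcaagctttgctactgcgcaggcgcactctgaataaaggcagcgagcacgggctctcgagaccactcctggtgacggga
Suv39h1 downstream: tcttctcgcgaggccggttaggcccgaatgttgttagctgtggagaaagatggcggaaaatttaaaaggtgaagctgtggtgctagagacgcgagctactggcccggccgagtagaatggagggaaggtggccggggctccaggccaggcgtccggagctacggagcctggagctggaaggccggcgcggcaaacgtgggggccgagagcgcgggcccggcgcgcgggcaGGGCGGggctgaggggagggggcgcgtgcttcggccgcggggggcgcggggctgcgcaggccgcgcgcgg
Setd7: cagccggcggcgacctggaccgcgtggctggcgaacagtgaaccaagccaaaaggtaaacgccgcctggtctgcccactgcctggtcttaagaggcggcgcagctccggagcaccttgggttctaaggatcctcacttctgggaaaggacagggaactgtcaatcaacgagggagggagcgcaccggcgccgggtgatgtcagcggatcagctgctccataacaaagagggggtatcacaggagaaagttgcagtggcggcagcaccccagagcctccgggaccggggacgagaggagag
Sirt1: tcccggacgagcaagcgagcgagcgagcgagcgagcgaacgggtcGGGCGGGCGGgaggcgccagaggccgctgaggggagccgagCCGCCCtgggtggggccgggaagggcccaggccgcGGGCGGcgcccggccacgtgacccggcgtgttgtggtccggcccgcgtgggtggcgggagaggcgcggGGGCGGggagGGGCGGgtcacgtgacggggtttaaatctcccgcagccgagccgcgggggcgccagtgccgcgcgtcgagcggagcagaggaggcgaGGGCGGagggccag
Setd6: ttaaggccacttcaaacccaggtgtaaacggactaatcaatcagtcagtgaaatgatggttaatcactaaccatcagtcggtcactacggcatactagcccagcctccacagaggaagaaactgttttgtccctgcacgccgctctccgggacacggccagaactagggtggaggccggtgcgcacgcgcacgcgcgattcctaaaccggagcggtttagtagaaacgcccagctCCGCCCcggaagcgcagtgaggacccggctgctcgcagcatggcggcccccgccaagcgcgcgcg

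None of these 5 windows held TGANTCA, a loose form of the AP-1 motif with any base in the middle, or the related TGACGTCA. Each of these motifs reads the same on both strands. Of all 32851 RefSeq promoter windows, 7.81% held TGANTCA and 1.79% TGACGTCA. Promoters were matched for 74 of the 89 enzymes, 98 windows in all, and 8.16% of these held TGANTCA, in 7 genes (Hdac7, Hdac9, Kat2b, Kat8, Kdm3a, Kdm4a and Kdm5c). The GC box stood in 66.3% of the enzymes' windows, against 35.7% of all windows. The enzymes' windows were also richer in G and C, with a median of 62% against 52.7% over all windows. The part of base composition in the GC box shares was not tested. The Sirt1 window held 7 GC boxes, counting those that overlap, while the Setd7 window held 0. A match describes letters in a window and is not evidence of binding.

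H3K4 methylation is written by the Kmt2 and Setd1 enzymes, and 2 of the 7 listed writers of this mark, Setd7 and Kmt2a, were at least 1.5-fold higher with dox, beside 16.7% of all genes. Kmt2a (MLL1), known for maintaining Hox gene expression, stood at 500 with dox and 252 without dox, 1.95-fold higher, just under the 2-fold limit. Its log2 ratio was 0.96, 1.04 with the median of all genes set to 0 and 0.55, under 1.5-fold, with the length trend removed, its longest transcript being 16470 nt. Kmt2b (MLL2), which methylates bivalent promoters in mouse ES cells, stood at 546 with dox and 588 without. The enhancer enzymes Kmt2c and Kmt2d stood at 319 and 371 with dox and at 235 and 310 without dox. Setd1a was at 403 with dox and 414 without, and Setd1b at 98 with dox and 112 without. The median log2 ratio of the 7 writers was 0.25, but −0.19 with the length trend removed. None of the 6 erasers of H3K4 passed 1.5-fold, beside 34.4% of all genes. With the length trend removed Kdm5b did, at a log2 ratio of −0.64. The median of these erasers was −0.02, or −0.31 with the trend removed. Kdm1a (LSD1), which works with CoREST, stood at 763 with dox and 532 without, while Kdm5b stood at 988 with dox and 1276 without. Kdm5a was at 289 with dox and 299 without, Kdm5c at 529 with dox and 484 without, and Kdm5d, a Y-linked paralog of Kdm5c, at 51 in both.

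H3K9 methylation, the mark of heterochromatin, had 6 listed writers with a median of 0.06 and 8 erasers at or above the floor with a median of 0.02, which were 0.01 and −0.11 with the length trend removed. Apart from Suv39h1 no writer of this mark passed 1.5-fold, beside 34.4% of all genes. With the length trend removed Setdb1 did, at a log2 ratio of −0.64. Setdb1, which silences retroviral repeats with Trim28, stood at 365 with dox and 516 without dox. The partners Ehmt1 and Ehmt2 (GLP and G9a), which form 1 complex, stood at 204 and 471 with dox and at 186 and 434 without dox. Among the erasers the H3K9 demethylases Kdm3a and Kdm3b were both lower, at 803 and 498 with dox and at 1245 and 762 without dox, 1.54-fold and 1.52-fold lower. Their relative Jmjd1c stood at 494 with dox and 353 without, and Phf8 at 141 with dox and 97 without. Kdm4a stood at 351 with dox and 269 without, Kdm4b at 113 with dox and 144 without, and Kdm4c at 208 with dox and 266 without.

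The enzymes of the other lysine marks were all within 2-fold, which 14.7% of all genes passed. Setd2, the writer of H3K36 trimethylation on transcribed genes, stood at 590 with dox and 537 without, and Nsd1 at 773 with dox and 744 without. Of the H3K36 erasers Kdm2b, which brings a Polycomb complex to CpG islands, stood at 319 with dox and 479 without dox, while Kdm2a stood at 419 with dox and 325 without. The H3K27 demethylases Kdm6a (UTX) and Kdm6b stood at 253 and 157 with dox and at 261 and 180 without dox. Kmt5a, which adds the first methyl group to H4K20, was 1.60-fold higher, at 423 with dox and 261 without. Kmt5b and Kmt5c, which extend that mark, stood at 170 and 208 with dox and at 219 and 261 without dox. Dot1l, the H3K79 methyltransferase, stood at 759 with dox and 509 without, 1.48-fold higher. Smyd5 was at 224 with dox and 367 without, and Setd5, whose activity is uncertain, at 1296 with dox and 892 without.

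Arginine methyltransferases had a median of −0.35 over 6 genes at or above the floor, with 4 ratios below 0 and 2 above. Over all 8547 genes at or above the floor the median was −0.08, with 4690 ratios below 0 and 3771 above. No arginine methyltransferase passed 2-fold, beside 14.7% of all genes. Prmt6, a writer of asymmetric H3R2 methylation, was the lowest, at 76 with dox and 131 without dox. Prmt5, the main writer of symmetric arginine methylation, stood at 330 with dox and 475 without, and its obligate partner Wdr77 (MEP50) at 594 with dox and 779 without. Prmt3, which methylates a ribosomal protein, stood at 151 with dox and 229 without. Carm1, a coactivator, stood at 371 with dox and 329 without, and 21.1% of its exonic bases are shared with Yipf2 on the other strand. Of the 89 enzymes 20 share exonic bases with another listed gene, and for 11 the shared part is 5% or more.

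Among acetyltransferases none of the 9 at or above the floor passed 2-fold, beside 14.7% of all genes. The median of the 9 was 0.03, or −0.03 with the length trend removed. Ep300, which acetylates H3K27 at enhancers, stood at 734 with dox and 487 without dox, just under the 1.5-fold limit, and its paralog Crebbp stood at 169 with dox and 145 without. Kat6b (MORF) was the lowest, at 465 with dox and 827 without dox, 1.76-fold lower, and −1.07 on the log2 scale with the length trend removed. Its paralog Kat6a stood at 268 with dox and 210 without. Kat2a, the acetyltransferase of the SAGA complex, stood at 346 with dox and 429 without, and Kat7 (HBO1) at 552 with dox and 541 without.

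Of the 9 deacetylases at or above the floor 6 passed 1.5-fold, 3 on each side, beside 34.4% of all genes. Only Sirt1 passed 2-fold. The 1.5-fold count depends on the setting. With a pseudocount of 50, Hdac5, Hdac4 and Sirt7 were under 1.5-fold, at log2 ratios of 0.55, −0.40 and 0.40. With the length trend removed Hdac5 was under 1.5-fold, at 0.53. Hdac2, a catalytic subunit of the NuRD, Sin3 and CoREST complexes, stood at 423 with dox and 753 without dox, 1.76-fold lower, and Hdac1, its partner there, at 1101 with dox and 1417 without. Hdac3, the enzyme of the NCoR complex, stood at 223 with dox and 210 without. In class II, Hdac6, a largely cytoplasmic deacetylase of tubulin, was 1.82-fold higher, at 547 with dox and 296 without dox. Hdac5 was also higher, at 238 with dox and 147 without, and Hdac4 lower, at 52 with dox and 85 without. Of the nuclear sirtuins Sirt7 stood at 82 with dox and 50 without, and Sirt6 at 115 with dox and 141 without. Among the 18 lysine demethylases at or above the floor, 2 passed 1.5-fold, Kdm3a and Kdm3b, beside 34.4% of all genes. With the length trend removed Kdm2b and Kdm5b passed as well, at −0.69 and −0.64. With a pseudocount of 50 Kdm3b did not pass, at −0.57.

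**Figure D4:**
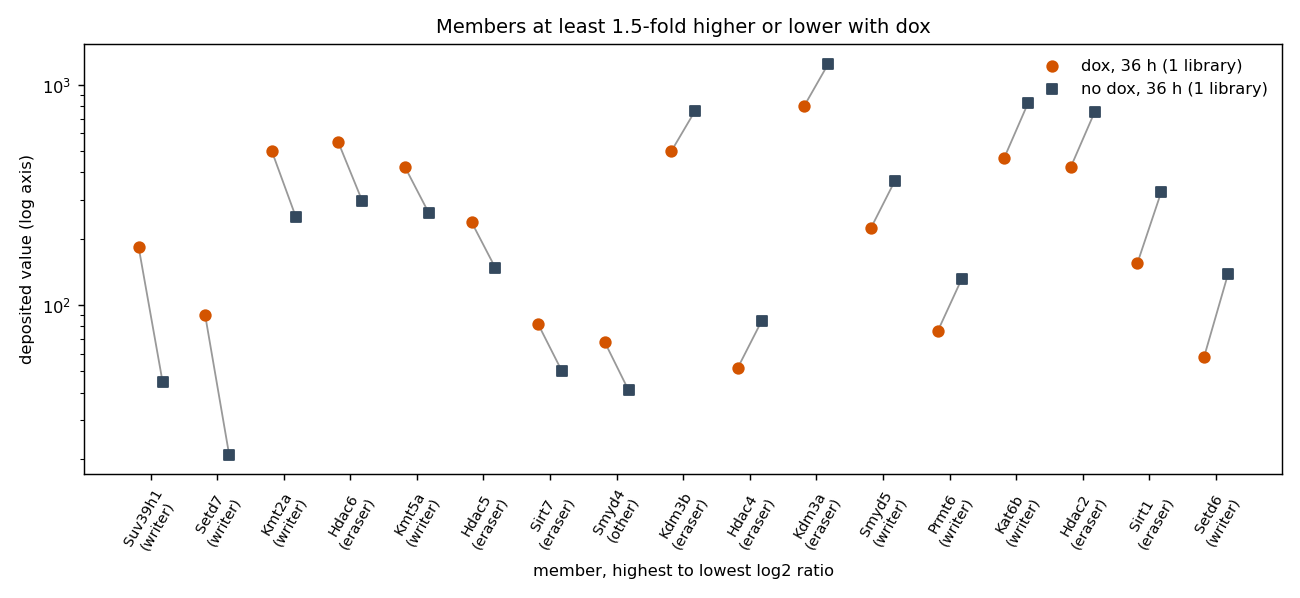
Deposited values, on a log axis, of the 17 enzymes at least 1.5-fold higher or lower with dox, joined between the library with dox (orange circle, left) and without dox (dark square, right), 1 library each. The 8 enzymes on the left are higher with dox and the 9 on the right lower.

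Some close relatives stood apart and others had nearly equal ratios. In 16 pairs of related enzymes, put together after the values were seen, 7 had log2 ratios of opposite sign. This became 8 with the median of all genes set to 0 and 10 with the length trend removed. Of the 73 enzymes at or above the floor 35 had a ratio above 0 and 37 below, so opposite signs are common among any pairs. Among the 7, Suv39h2 and Setdb2 stood close to 0, at −0.01 and 0.01. The ratios of 4 pairs differed by 1 or more on the log2 scale. These were Suv39h1 and Suv39h2, differing by 1.83, Hdac4 and Hdac5 by 1.28, Kat6a and Kat6b by 1.15, and Kmt2a and Kmt2b by 1.07. By contrast Ehmt1 and Ehmt2 differed by 0.01, Kdm3a and Kdm3b by 0.02, and Kmt5b and Kmt5c by 0.03. For Hdac1 and Hdac2 the summed value was 1524 with dox and 2170 without dox, and for Ep300 and Crebbp it was 903 with dox and 632 without. These sums add scores of different genes, which may not share a scale.

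**Figure D5:**
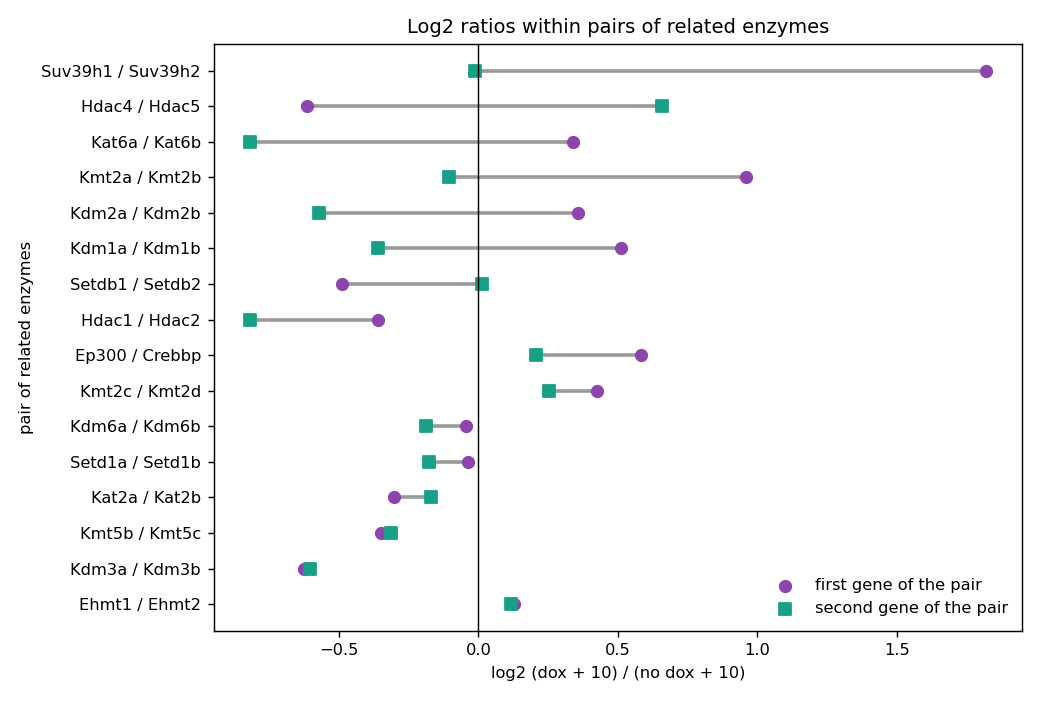
Log2 ratio of dox to no dox for the first gene (purple circle) and the second gene (green square) of 16 pairs of related enzymes, ordered by the gap between them. The widest gap, 1.83, is that of Suv39h1 and Suv39h2 and the narrowest, 0.01, that of Ehmt1 and Ehmt2.

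A further 16 enzymes were under the floor: 4 writers, 10 erasers and 2 relatives. Prmt2 stood at 27 with dox and 4 without dox, and Hdac9 at 16 with dox and 0 without. Kat8 (MOF), which acetylates H4K16, stood at 29 with dox and 42 without, and Phf2 at 46 with dox and 32 without. The mitochondrial sirtuins Sirt3, Sirt4 and Sirt5 stood at 16, 21 and 6 with dox and at 21, 35 and 0 without dox. Sirt2, mainly cytoplasmic, was at 45 with dox and 36 without. Kdm8 stood at 11 with dox and 27 without, and Jmjd7 at 17 with dox and 30 without. Jmjd7 shares 66.7% of its exonic bases with Gm28042 on the same strand, which stood at 34 with dox and 5 without. Hdac7 was at 19 with dox and 20 without, and Hdac8 and Hdac10 each at 14 with dox and 20 without. The largest value of Hdac11 and Smyd1 was under 20, and Prmt8, a membrane-bound enzyme of neurons, was at 0 in both libraries.

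Genes that work with these enzymes were read from a list of 143 symbols, drawn up with earlier results of these data known. Of these 138 were listed and 125 reached the floor, where 2 were at least 2-fold higher and 2 at least 2-fold lower, with a median log2 ratio of −0.14, beside 9.23% and 5.49% of all genes. Both that were lower encode core subunits shared by the H3K4 methyltransferase complexes. Wdr5, the scaffold that binds the Kmt2 enzymes, stood at 591 with dox and 1365 without dox, and Dpy30 at 213 with dox and 500 without, each with a log2 ratio of −1.19. With the length trend removed Wdr5 stood at −1.13 and Dpy30 at −0.84, under 2-fold. The other core subunits did not pass 2-fold: Rbbp5 stood at 183 with dox and 274 without, and Ash2l at 1175 with dox and 891 without. Men1, a subunit particular to the Kmt2a and Kmt2b complexes, stood at 287 with dox and 191 without. Ezh2, the H3K27 methyltransferase of Polycomb, stood at 405 with dox and 794 without dox, a log2 ratio of −0.95. Rcor1 and Rcor2, the CoREST scaffolds of Kdm1a, stood at 182 and 153 with dox and at 119 and 236 without dox. Of 19 subunits of the CoREST, Sin3 and NCoR complexes 0 passed 2-fold and 8 had a ratio above 0, with a median of −0.17. Ncor1, the scaffold of NCoR, stood at 1156 with dox and 1392 without, and the lowest ratios were those of Tbl1xr1, at 77 with dox and 155 without, and Sap30, at 109 with dox and 208 without. Of 11 partners of the H3K9 enzymes 0 passed 2-fold, with a median of −0.11. Trim28, which recruits Setdb1, stood at 2864 with dox and 3573 without, and the lowest ratio was that of Wiz, a zinc finger partner of Ehmt2, at 197 with dox and 393 without. In the group of SAGA, ATAC, NuA4 and MSL subunits none of 27 passed 2-fold, and Trrap, the large scaffold of SAGA and NuA4, stood at 623 with dox and 501 without.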

How the data were processed

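Total RNA from 2 cultures was made into TruSeq libraries, per the labels' protocols. The submitters' processing notes name bcl2fastq, RSEM, Bowtie2 and mm10. Normalization, gene filter and strand setting: not given in the sources used here. Values as deposited were handled as a score, normalized and rounded upstream as far as the numbers show: 75.5% of sorted positions were equal between libraries (tolerance 0). They were not read as counts. Groups came from the agent in the labels.

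The pseudocount was 10 and the floor on the larger value 50. With 1 library per group no test, SD or p-value was computed. Members, roles and the partner list were chosen with earlier results of these data known. Named were members past 2-fold, the extremes and largest values of each family, and partners past 2-fold or largest in their complex; a few other partners were chosen after their values were seen. Transcript lengths, positions and exon overlaps came from GENCODE M21 (GRCm38), which matched all 89 symbols. The length trend was removed with lowess (fraction 0.3). Promoters came from RefSeq. Only the ratio, the floor and the 2-fold call were run on simulated data. These were drawn as counts with an assumed spread, unlike the deposited scores. The length trend, exon overlaps and motif matches were not run on simulated data. Python 3.11.15, numpy 2.4.6, pandas 2.3.3, statsmodels 0.14.6 and matplotlib 3.10.9 were used.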

Additional observations from a re-analysis of the deposited data

How the results depend on the processing

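Under the settings run, 1 to 6 enzymes passed 2-fold in either direction, against 4 as reported, and which ones pass depended on the setting. With a pseudocount of 50, 1 enzyme (a writer, Suv39h1) was at least 2-fold higher and 0 were lower, writers and erasers each at 0. With the median of all genes set to 0, 3 were higher and 1 was lower, and 0 erasers were lower; the medians of all enzymes and of erasers turned to 0.066 and 0.031. With the length trend removed the medians were −0.19 for all enzymes, −0.15 for writers (from above 0) and −0.22 for erasers. With no floor, 4 enzymes were higher, 1 of them an eraser. With a floor of 250, 0 were higher, 0 writers passed on either side and 1 enzyme was lower, and the erasers' median was −0.19, since fewer genes enter. With members of other substrates left out, 1 enzyme and 0 writers were lower, since Setd6 leaves. With Suv39h1 summed with Gm14820, an alternative chosen after the data were seen, 1 enzyme, a writer, was higher. With a pseudocount of 1, all 73 single ratios kept their side of 2-fold. Setting the median to 0 changed the sign of 6 single ratios and removing the length trend that of 9. Kat6b passed 2-fold only with the length trend removed, where Setd6 did not, at −0.93. Setd7, Setd6 and Sirt1 did not pass with a pseudocount of 50, and with the median set to 0 Sirt1 stood at −0.95 and Kmt2a passed. Of the 4 partner genes past 2-fold, Dpy30 and Mllt3 did not pass with the length trend removed, nor Acss2 and Mllt3 with a pseudocount of 50. The cause of these shifts was not tested. No paired analysis was possible because each group has 1 library, and no library could be left out. Depth is unknown.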

Other observations

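The 2 partner genes at least 2-fold higher with dox were 1 of 9 genes of cofactor supply and 1 of 11 readers of acetylated histones. These shares are near the 9.23% of all genes that were at least 2-fold higher. Acss2, which makes acetyl-CoA from acetate, stood at 80 with dox and 22 without dox, a log2 ratio of 1.49 that was 0.85 with a pseudocount of 50. Acly, which makes acetyl-CoA from citrate, stood at 2328 with dox and 1571 without, a log2 ratio of 0.56. Mat2a, the S-adenosylmethionine synthetase of dividing cells, stood at 1047 with dox and 1275 without, and its regulatory subunit gene Mat2b at 165 with dox and 247 without. Nampt, of NAD salvage, stood at 312 with dox and 388 without. Of 11 readers at or above the floor, Mllt3 (AF9), a partner of Dot1l, stood at 101 with dox and 41 without dox, a log2 ratio of 1.12 that was 0.73 with a pseudocount of 50 and 0.94 with the length trend removed, while Mllt10 (AF10), another Dot1l partner, stood at 266 with dox and 468 without, a log2 ratio of −0.79.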
